A study of Mus musculus with 6 samples.

Results

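The genes described here are 10 genes of MHC class I antigen presentation: B2m, H2-K1 and H2-D1, which encode the chains of the classical class I molecule; Tap1, Tap2 and Tapbp, of the peptide-loading complex; Psmb8, Psmb9 and Psmb10, the catalytic subunits of the immunoproteasome; and Nlrc5, a transcriptional activator of class I genes. They were chosen by name and function, with earlier results of these data known, and make up 10 of the 47455 genes in the count table. All 10 were among the 16079 genes with enough counts to be tested. The study, on how damaged skin activates gamma-delta T cells, sequenced poly-dT-captured RNA of the whole epidermis, freed from the dermis with trypsin. C57BL/6 mice 6 to 8 weeks old received 8 punch wounds of 3 mm on the back. Each of 3 mice gave 1 wounded library, collected at 2 h, and 1 non-wounded library. No transgene, deletion or drug is named in the labels for either group.

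MHC class I molecules show peptides from a cell's own proteins to CD8 T cells, and nearly every nucleated cell, keratinocytes included, carries them. Proteasomes cut proteins in the cytosol, the TAP transporter moves the peptides into the endoplasmic reticulum, and tapasin helps to load them onto a heavy chain paired with beta-2-microglobulin. Interferon-gamma is known to induce most of these genes, and the immunosubunits then replace the constitutive catalytic subunits in newly made proteasomes.

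The libraries held 20746185 to 26814845 counts. The summed level of keratinocyte markers (Krt5, Krt14, Krt1, Krt10, Trp63, Dsg3 and Perp) was 26945 to 32920 counts scaled to library size (CPM) in non-wounded and 27316 to 31218 CPM in wounded tissue. Of these 7 markers 2 were called higher and 1 lower, or 1 and 4 with library totals alone. The calls depended on how libraries were scaled. Levels in CPM below use edgeR's TMM factors, which were 1.12 in the non-wounded and 0.887 to 0.898 in wounded libraries. Scaling by library totals alone lowered the median log2 fold change of all genes by 0.32, so each direction given below is relative to that choice.

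With TMM scaling and edgeR's quasi-likelihood test (Benjamini-Hochberg adjusted p under 0.05 over all genes tested), 2 of the 10 genes rose after wounding and 4 fell. Among all genes tested, 24% rose and 24.4% fell. H2-D1 and Nlrc5 were the genes that rose, and Tap1, Tap2, Psmb8 and Psmb9 were those that fell. The median log2 fold change of the 10 genes was -0.086, beside -0.03 over all genes tested. With library totals alone, 0 of the 10 rose and 5 fell, against 13.5% and 41.4% of all genes. With the mouse as a block 2 rose and 5 fell, against 26.2% and 27.1% of all genes, Psmb10 being the gene added. Leaving out 1 library gave 0 to 1 that rose and 2 to 3 that fell. Over all genes these fits gave 3153 to 3597 that rose and 3147 to 3600 that fell, beside 3859 and 3917 with all 6 libraries. Of the 10 genes, 2 fell without non-wounded mouse 2, non-wounded mouse 3 or wounded mouse 3. Without non-wounded mouse 2, wounded mouse 1 or wounded mouse 2, 0 of them rose. Tap1 and Psmb9 fell in every one of 17 alternative settings, and all other calls among the 10 were lost in at least 1 setting. In CPM the wounded libraries lay entirely above the non-wounded for 4 genes and entirely below for 5, where 28.8% and 29.7% of all genes did so. In TPM, the unit that also scales by transcript length, they lay above for 0 genes and below for 5, where 15.3% and 41.8% of all genes did so. The 5 in TPM included Tapbp, which lay above in CPM, and left out Tap2.

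**Figure D1:**
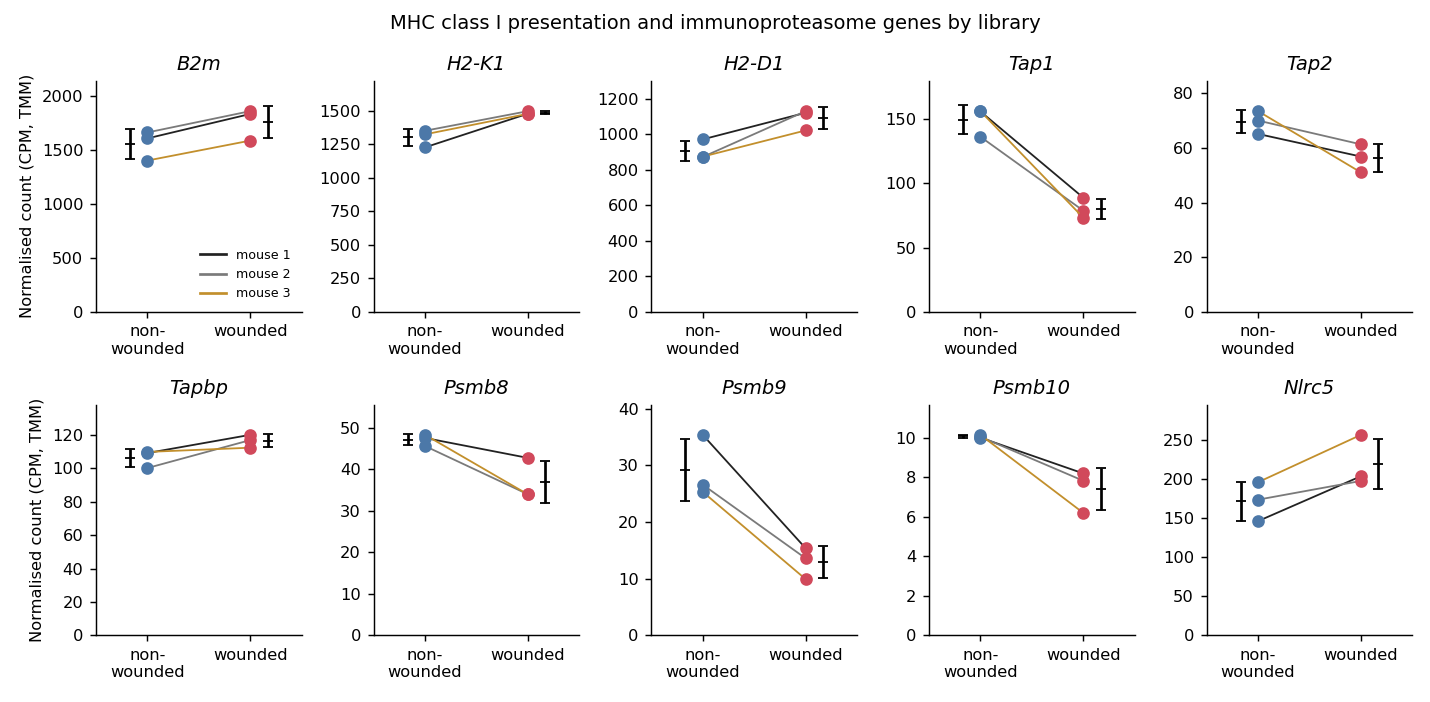
Normalised level (CPM, TMM-scaled, linear axes from 0) of each of the 10 genes in the 3 non-wounded and 3 wounded libraries; points are libraries, lines join the libraries of 1 mouse, and bars beside the points give mean ± SD. Tap1 and Psmb9 were lower in wounded tissue of all 3 mice with no overlap between groups, and B2m was the 1 gene whose groups overlapped.

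The genes lie in 3 parts of the genome (GRCm38, GENCODE M21 annotation). B2m lies on chromosome 2 (chr2:122147686-122153083, plus strand), and Nlrc5 (chr8:94434356-94527272, plus strand) and Psmb10 (chr8:105935735-105938444, minus strand) lie on chromosome 8. The other genes lie in the MHC region on chromosome 17, where Psmb9, Tap1, Psmb8 and Tap2 stand side by side within 34.3 kb (chr17:34181987-34216321). The 4 genes of that interval are the 4 called lower with TMM factors, a match that rests on the threshold. Psmb10, on chromosome 8, just missed it (log2 fold change -0.44, edgeR adjusted p = 0.0522). Its log2 fold change was lower than those of Psmb8 (-0.35) and Tap2 (-0.30). Of 17 alternatives, Psmb10 was called in 8, Psmb8 in 12 and Tap2 in 11. Psmb9 (chr17:34181987-34187764) lies on the minus strand and Tap1 (chr17:34187553-34197225) on the plus strand. They point away from each other and overlap by 212 bases at their starts. Psmb8 (chr17:34197721-34201454) and Tap2 (chr17:34203527-34216321) follow on the plus strand. Tapbp (chr17:33915899-33929292, plus strand), H2-K1 (chr17:33996017-34000347, minus strand) and H2-D1 (chr17:35262730-35267499, plus strand) lie outside the interval.

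**Figure D2:**
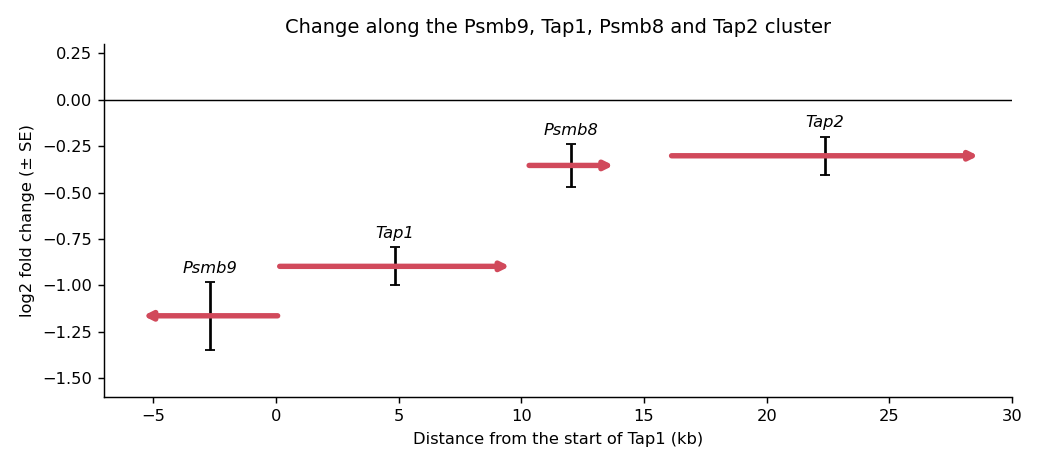
Log2 fold change ± SE (vertical axis, wounded over non-wounded, TMM factors) of the 4 neighbouring genes of chromosome 17, each drawn to scale as an arrow in its direction of transcription against distance from the start of Tap1 in kb. Psmb9 (-1.16) and Tap1 (-0.90) start head to head and lie lower than Psmb8 (-0.35) and Tap2 (-0.30).

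RefSeq promoter windows (build GRCm38.p6, 250 bases before to 50 after each annotated start) were at hand for 8 of the 10 genes, all but Nlrc5 and Tap2. Those of the class I chains and of Tap1 are printed because, with TMM factors, the class I chains had positive and the Tap1 and Psmb9 pair negative log2 fold changes; the signs of the class I chains turned with library totals alone. Capitals mark matches, on either strand, to the interferon regulatory factor (IRF) core AANNGAAA, the NF-kappaB consensus, CCAAT and the cAMP response element core TGACG.
H2-K1 (chr17:34000298-34000597, minus strand): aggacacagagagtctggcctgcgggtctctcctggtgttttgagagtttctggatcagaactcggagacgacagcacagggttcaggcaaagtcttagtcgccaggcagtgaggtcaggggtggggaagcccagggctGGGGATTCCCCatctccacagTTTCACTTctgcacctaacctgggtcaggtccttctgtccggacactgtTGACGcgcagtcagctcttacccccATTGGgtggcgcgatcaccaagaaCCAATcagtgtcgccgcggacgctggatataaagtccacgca
H2-D1 (chr17:35262844-35263143, plus strand): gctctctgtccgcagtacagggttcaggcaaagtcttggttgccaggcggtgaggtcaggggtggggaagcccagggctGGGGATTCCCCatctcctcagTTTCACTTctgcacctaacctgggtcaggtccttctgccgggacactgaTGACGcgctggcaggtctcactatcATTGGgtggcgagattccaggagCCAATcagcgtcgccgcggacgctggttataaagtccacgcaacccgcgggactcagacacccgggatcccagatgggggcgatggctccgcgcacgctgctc
B2m (chr2:122147437-122147736, plus strand): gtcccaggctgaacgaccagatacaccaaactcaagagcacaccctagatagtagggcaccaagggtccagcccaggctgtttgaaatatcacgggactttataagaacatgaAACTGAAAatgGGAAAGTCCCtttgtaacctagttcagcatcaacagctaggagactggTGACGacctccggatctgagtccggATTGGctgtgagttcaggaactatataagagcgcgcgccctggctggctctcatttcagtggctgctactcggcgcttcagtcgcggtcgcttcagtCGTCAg
Tap1 (chr17:34187306-34187605, plus strand): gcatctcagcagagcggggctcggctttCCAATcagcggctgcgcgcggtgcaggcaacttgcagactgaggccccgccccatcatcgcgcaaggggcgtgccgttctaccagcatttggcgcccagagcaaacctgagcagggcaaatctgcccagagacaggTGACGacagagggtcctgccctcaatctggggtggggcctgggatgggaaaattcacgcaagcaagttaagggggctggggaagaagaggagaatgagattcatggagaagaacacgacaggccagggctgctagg
The windows of H2-K1 and H2-D1 shared an identical run of 47 bases that holds the NF-kappaB match. In both, the NF-kappaB matches overlap each other on both strands, and no match to 1 motif overlaps a match to another. B2m, H2-K1 and H2-D1, 3 of the 8 genes with a window, held the IRF core, which 23.9% of 32851 mouse promoter windows held. The same 3 genes held an NF-kappaB match, present in 4.5% of all windows. CCAAT was in 6 of the 8 windows (37.4% of all windows) and TGACG in 5 (20.8%). The Tap1 window has 275 bases in common with that of Psmb9 (chr17:34187281-34187580, minus strand), read from the other strand, and neither held these letters of the IRF core or NF-kappaB. The GC box GGGCGG was in 3 of the 8 windows (35.7% of all windows). These matches describe letters in the window and do not show binding.

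H2-K1 and H2-D1 encode the classical heavy chains of the C57BL/6 haplotype, which bind the peptide. H2-D1 was at 971, 872 and 874 CPM in non-wounded tissue (mouse 1, 2, 3) and at 1121, 1130 and 1021 CPM in their wounded libraries. Every wounded library lay above every non-wounded library. H2-D1 rose 1.20-fold (log2 fold change 0.27, SE 0.09, edgeR adjusted p = 0.0375), but with library totals alone its log2 fold change was -0.056. The edgeR adjusted p was 0.104 without non-wounded mouse 2, 0.0856 without non-wounded mouse 3, 0.0984 without wounded mouse 1 and 0.147 without wounded mouse 2. Its TPM was 805 ± 47.6 in non-wounded and 806 ± 23.7 in wounded tissue (SD, n = 3), with overlapping groups.

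H2-K1 was at 1227, 1351 and 1324 CPM in non-wounded tissue of mice 1, 2 and 3, and at 1479, 1498 and 1478 CPM after wounding. The groups did not overlap in CPM, but the difference did not pass the test (log2 fold change 0.19, SE 0.09, edgeR adjusted p = 0.102), and it was -0.13 with library totals alone. DESeq2 gave an adjusted p of 0.0465.

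B2m encodes beta-2-microglobulin, the light chain shared by all class I molecules. It had 1608, 1663 and 1403 CPM in the non-wounded libraries and 1835, 1861 and 1588 CPM in the wounded ones. The groups overlapped, since wounded mouse 3 lay below the first 2 non-wounded libraries. B2m did not pass the test (log2 fold change 0.18, SE 0.11, edgeR adjusted p = 0.201), passed it in none of its 16 alternative settings, and turned to -0.15 with library totals alone.

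Reads can be split between class I heavy chain genes, which are near copies of each other, so their sum was also tested. H2-K1 and H2-D1 counted together gave a log2 fold change of 0.22 (SE 0.09, edgeR adjusted p = 0.0590). The sum of 13 heavy chain genes (H2-K1, H2-D1 and the H2-Q and H2-T genes, without the H2-M genes) gave 0.18 (SE 0.09, edgeR adjusted p = 0.134). With library totals alone these values were -0.10 and -0.15. The 2 classical genes made up 71.9 to 72.8% of the summed TPM of the 13 in non-wounded tissue and 74.3 to 76.1% after wounding, without overlap. The summed TPM of H2-K1 and H2-D1 per TPM of B2m was 0.642 to 0.764 before and 0.693 to 0.797 after, with overlap.

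Tap1 and Tap2 encode the paired chains of the peptide transporter. Tap1 showed 156, 136 and 156 CPM in non-wounded epidermis (mouse 1, 2, 3) and 88.8, 78.7 and 73.2 CPM in the wounded ones. The groups were far apart, and the fall was seen within each mouse. Tap1 fell 1.86-fold (log2 fold change -0.90, SE 0.10, edgeR adjusted p = 7.3e-05), with a range of -1.22 to -0.84 and a highest adjusted p of 0.00101 over the 17 alternatives. Among all genes tested, 13.5% had a lower log2 fold change.

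For Tap2 the non-wounded libraries gave 65.2, 70.1 and 73.5 CPM and the wounded libraries 56.9, 61.3 and 51.1 CPM, so that the groups did not overlap. Tap2 fell 1.23-fold (log2 fold change -0.30, SE 0.10, edgeR adjusted p = 0.0321). The edgeR adjusted p was 0.0777 without non-wounded mouse 2, 0.0903 without non-wounded mouse 3, 0.0791 without wounded mouse 1 and 0.0967 without wounded mouse 3. The TPM of Tap1 per TPM of Tap2 was 1.82 to 2.90 in non-wounded and 0.977 to 1.52 in wounded tissue, without overlap.

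Tapbp encodes tapasin, which bridges TAP and the heavy chain. Its libraries gave 109, 100.2 and 109.9 CPM before and 120.1, 117 and 112 CPM after wounding. The groups did not overlap in CPM, with wounded tissue above. In TPM they did not overlap either, but wounded tissue lay below (86.6 ± 3.36 before and 73.2 ± 8.52 after, SD, n = 3). The difference did not pass the test (log2 fold change 0.13, SE 0.09, edgeR adjusted p = 0.234), and its sign turned with library totals alone (-0.19) and upper-quartile factors (-0.017). The annotation places Zbtb22 over part of Tapbp on the same strand, with a mean of 764 counts beside 2602 for Tapbp, so that some reads could be assigned to either.

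Psmb9 encodes the beta1i immunosubunit, which takes the place of the Psmb6 subunit. It was at 35.4, 26.6 and 25.3 CPM in non-wounded skin (mouse 1, 2, 3), and at 15.4, 13.6 and 9.92 CPM in the wounded ones. Each wounded library was far below the lowest non-wounded one. Psmb9 fell 2.24-fold (log2 fold change -1.16, SE 0.18, edgeR adjusted p = 0.000533), with -1.63 to -1.004 over the 17 alternatives and a highest adjusted p of 0.00275. This was the lowest log2 fold change among the 10 genes, and 8.20% of all genes tested had a lower one.

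Psmb8 encodes beta5i, the immunosubunit in place of Psmb5. The non-wounded libraries gave 47.6, 45.6 and 48.3 CPM and the wounded libraries 42.8, 34.0 and 34.0 CPM. The groups did not overlap, and wounded mouse 1 lay nearest to the non-wounded libraries. Psmb8 fell 1.28-fold (log2 fold change -0.35, SE 0.12, edgeR adjusted p = 0.0273). The edgeR adjusted p was 0.0576, 0.0508 and 0.0675 without non-wounded mouse 1, 2 or 3, and 0.103 and 0.0712 without wounded mouse 2 or 3.

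Psmb10 encodes beta2i, the immunosubunit in place of Psmb7, and was the least abundant of the 10 genes. It gave 10.01, 10.06 and 10.15 CPM in non-wounded tissue and 8.20, 7.83 and 6.20 CPM after wounding, without overlap. The difference missed the threshold (log2 fold change -0.44, SE 0.17, edgeR adjusted p = 0.0522). With the mouse as a block the edgeR adjusted p was 0.0439, and with library totals alone it was 0.00322 at a log2 fold change of -0.77.

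Each immunosubunit was set against the constitutive subunit it replaces, in TPM. This ratio compares 2 genes of 1 library and so does not depend on the scaling of libraries. Psmb9 per Psmb6 was 0.589, 0.490 and 0.425 in the non-wounded libraries and 0.189, 0.163 and 0.110 in the wounded ones, a log2 difference of -1.72. Psmb8 per Psmb5 was 0.929, 0.776 and 0.908 before and 0.623, 0.563 and 0.641 after, a log2 difference of -0.51. Psmb10 per Psmb7 was 0.0812, 0.0826 and 0.0985 before and 0.0570, 0.0543 and 0.0472 after, a log2 difference of -0.73. The 3 ratios were lower in wounded tissue of every mouse and no groups overlapped. The exact two-sided permutation test gave p = 0.1 for each (0.1 adjusted over the 3 ratios), the smallest that 3 against 3 libraries allow.

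**Figure D3:**
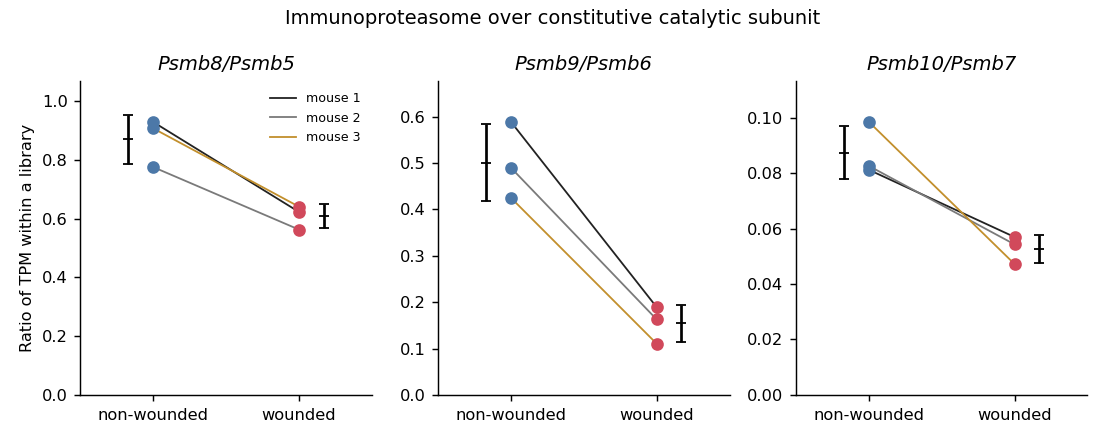
Ratio of TPM of each immunosubunit to the constitutive subunit it replaces (linear axes from 0), with points for libraries, lines joining the libraries of 1 mouse and bars for mean ± SD. The log2 differences were -1.72 for Psmb9 per Psmb6, -0.73 for Psmb10 per Psmb7 and -0.51 for Psmb8 per Psmb5.

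None of the 3 constitutive subunits was called lower. Psmb6 rose (log2 fold change 0.44, edgeR adjusted p = 0.00302; not called with library totals alone), as did Psmb7 (0.27, edgeR adjusted p = 0.0408), which had a negative sign in 4 of 17 alternatives and lost its call without non-wounded mouse 2 or 3 or wounded mouse 1 or 2. Psmb5 was at 38.2 CPM before and 41.9 CPM after (log2 fold change 0.13, edgeR adjusted p = 0.395).

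Nlrc5 encodes a member of the NLR family that acts at class I promoters. Its level was 146.5, 174 and 196 CPM before wounding (mouse 1, 2, 3), and 204, 198 and 257 CPM in the wounded ones. Wounded mouse 2 lay just above non-wounded mouse 3, so the groups were separate by a narrow margin. Nlrc5 rose 1.28-fold (log2 fold change 0.35, SE 0.13, edgeR adjusted p = 0.0489), but its log2 fold change was 0.027 with library totals alone and -0.058 on the log2(TPM + 1) scale. The call was lost without non-wounded mouse 1 (adjusted p = 0.164) or 2 (0.104) and without wounded mouse 1 (0.0566), 2 (0.0621) or 3 (0.204), by edgeR's test. Without wounded mouse 3 the log2 fold change was 0.22. With the mouse as a block the edgeR adjusted p was 0.00550.

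**Figure D4:**
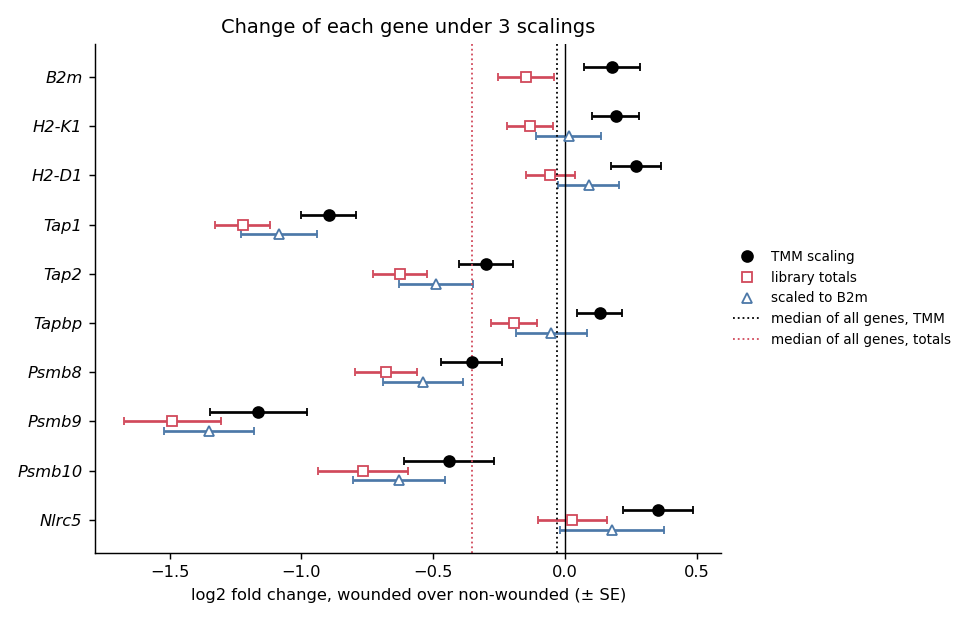
Log2 fold change ± SE (wounded over non-wounded) of the 10 genes with TMM factors (circles), library totals alone (squares) and scaling to B2m (triangles); dotted lines mark the median of all genes tested. Tap1, Tap2 and the 3 immunosubunits lay below 0 under all 3 scalings, while B2m, H2-K1, H2-D1 and Tapbp lay on both sides of 0.

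The genes were next scaled to B2m within each library, a choice made after their values had been seen. On that scale Psmb9 had a log2 difference of -1.35 (edgeR adjusted p = 0.000169) and Tap1 one of -1.09 (edgeR adjusted p = 0.000209). Psmb10 (-0.63, edgeR adjusted p = 0.0133), Psmb8 (-0.54, edgeR adjusted p = 0.0134) and Tap2 (-0.49, edgeR adjusted p = 0.0148) were also lower relative to B2m. H2-K1 (0.012, edgeR adjusted p = 0.947), H2-D1 (0.088, 0.566), Tapbp (-0.053, 0.782) and Nlrc5 (0.18, 0.498) did not pass the test against B2m. In TPM, Tap1 was 3.66% of B2m before wounding and 1.74% after, and Psmb9 was 2.40% before and 0.883% after. Tap2 was 1.53% of B2m before and 1.35% after in TPM, with overlapping groups and a log2 difference of -0.18 (exact permutation p = 0.5), smaller than in the counts.

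Levels of different genes were compared in TPM. In non-wounded tissue B2m came first at 3064 ± 247 TPM (SD, n = 3), then H2-K1 at 1286 ± 73.2 and H2-D1 at 805 ± 47.6 TPM, each separate from its neighbours. Tap1, Tapbp, Psmb9, Nlrc5 and Psmb8 followed between 111 and 64.3 TPM, and neighbours within this run overlapped. Tap2, at 46.5 ± 4.28 TPM, was separate from both its neighbours, and Psmb10 was last at 12.2 ± 0.238 TPM. After wounding the first 3 kept their order, with B2m at 2724 ± 165 TPM. Tap1 went from rank 4 to rank 6 with 47.4 ± 6.99 TPM, and Psmb9 from rank 6 to rank 9 with 24.3 ± 7.11 TPM. In wounded tissue Tapbp and Nlrc5 overlapped, as did Tap1 with Psmb8, Psmb8 with Tap2, and Tap2 with Psmb9.

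Other heavy chains of the class I family were split. Of 13 tested, 3 rose and 4 fell. The nonclassical genes H2-M5 (33.6 to 10.7 CPM, log2 fold change -1.64, edgeR adjusted p = 9.3e-05), H2-T10 (-0.84, 0.00132) and H2-M3 (-1.03, 0.00155), the last of which encodes a molecule that presents formylated peptides, fell in all 17 alternatives too. H2-Q4 (log2 fold change 0.36, edgeR adjusted p = 0.0114), H2-Q6 (0.33, 0.0131) and H2-Q10 (0.49, 0.0447) rose, but 0 of the 13 rose with library totals alone and 1 rose without wounded mouse 1. Reads can be shared among these genes, so single members are uncertain.

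The class I-like molecules held 5 tested genes, of which 1 rose and 2 fell. Hfe, a regulator of iron uptake, fell (log2 fold change -1.75, edgeR adjusted p = 0.000354), as did Mr1, which presents vitamin metabolites to MAIT cells (-0.73, edgeR adjusted p = 0.00525). Procr, the endothelial protein C receptor, rose (3.59, edgeR adjusted p = 0.00360) from 0.180 to 2.24 CPM. The size of its rise is uncertain. The non-wounded libraries held 0, 12 and 2 counts of Procr, and its log2 fold change was 1.26 to 5.63 over the 17 alternatives.

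Of 10 other genes of peptide loading and trimming in the endoplasmic reticulum, 5 rose and 0 fell with TMM factors, against 1 and 5 with library totals alone. Calr, the chaperone calreticulin, rose from 325 to 514 CPM (log2 fold change 0.66, edgeR adjusted p = 0.000221) and was called in all 17 alternatives. Sec61a1, of the translocation channel, rose (0.53, edgeR adjusted p = 0.000604), as did the disulphide isomerase gene P4hb (0.41, edgeR adjusted p = 0.00453); neither was called with library totals alone.

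Of 7 proteasome activators and assembly factors, 2 rose and 1 fell, against 1 and 3 with library totals alone. Psme3, which encodes the nuclear activator PA28gamma, rose (log2 fold change 0.91, edgeR adjusted p = 2.5e-05). Psme1, a subunit of the interferon-inducible activator PA28, rose (0.43, edgeR adjusted p = 0.00193; not called with library totals alone), and Psmg2, an assembly chaperone, fell (-0.59, edgeR adjusted p = 0.00609). Of 8 cytosolic peptidases tested, 4 rose and 1 fell, against 3 and 3 with library totals alone. The aminopeptidase gene Npepps (1.01, edgeR adjusted p = 0.000136), Prep (0.66, 0.000476) and Tpp2 (0.69, 0.000968) rose, and Nln, neurolysin, fell (-0.56, 0.00690).

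Transcription factors known to act on class I genes numbered 16, and 5 rose while 3 fell; with library totals alone 3 rose and 8 fell, and in the TPM fits 2 rose and 5 fell. Irf1, an interferon-inducible activator of Tap1 and Psmb9, was at 26.0, 26.3 and 34.1 CPM in the non-wounded libraries and at 141, 130.1 and 151 CPM in the wounded ones. The groups lay far apart, and the log2 fold change of Irf1 was 2.29 (edgeR adjusted p = 1.2e-06). The NF-kappaB subunit genes Rela (1.28, edgeR adjusted p = 0.000101) and Nfkb1 (0.60, edgeR adjusted p = 0.000931) rose. Creb1 (-0.39, edgeR adjusted p = 0.0111) and Irf2 (-0.36, edgeR adjusted p = 0.0147) were among the genes that fell.

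Among 9 genes of interferon receptors, their kinases and signalling inhibitors, 6 rose and 2 fell. The signalling inhibitors Socs3 (log2 fold change 2.53, edgeR adjusted p = 1.6e-06) and Socs1 (2.98, edgeR adjusted p = 9.2e-06) rose, as did the kinase gene Jak1 (0.81, edgeR adjusted p = 3.7e-05). Tyk2 (-1.08, edgeR adjusted p = 0.000178) and the interferon-gamma receptor gene Ifngr1 (-0.65, edgeR adjusted p = 0.00935) fell. Of 8 interferon genes, Ifnk passed the filter on low counts, with 2 counts over the non-wounded and 239 over the wounded libraries. Ifng had 14 counts in non-wounded and 10 in wounded tissue, and 4 of the 8 genes had 0 counts in all libraries.

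Of 25 interferon-induced genes tested outside the class I pathway, 2 rose and 10 fell, with a median log2 fold change of -0.75. The lower count was 15 with library totals alone, 4 without non-wounded mouse 3, 4 without wounded mouse 2 and 7 to 11 without any other single library. Cd274, which encodes the inhibitory ligand PD-L1, rose (1.94, edgeR adjusted p = 4.6e-05), and Rsad2, an antiviral gene, rose from 0.224 to 0.813 CPM (1.85, edgeR adjusted p = 0.0356; not called in 10 of 16 alternatives). Usp18, a negative regulator of interferon signalling, fell (-1.05, edgeR adjusted p = 0.00259), as did the guanylate-binding protein gene Gbp7 (-1.51, edgeR adjusted p = 0.00295).

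Of 7 MHC class II genes, 2 rose and 3 fell. Ciita, the class II transactivator and a relative of Nlrc5, fell from 10.7, 11.2 and 9.95 CPM to 1.97, 2.10 and 1.62 CPM (log2 fold change -2.48, edgeR adjusted p = 8.3e-06). H2-Eb1 (0.62, edgeR adjusted p = 0.000856) and H2-Ab1 (0.40, edgeR adjusted p = 0.00808) rose, and H2-DMa, of the peptide exchange factor, fell (-0.68, edgeR adjusted p = 0.00582). The higher count was 4 without wounded mouse 3 and 1 without wounded mouse 2.

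**Figure D5:**
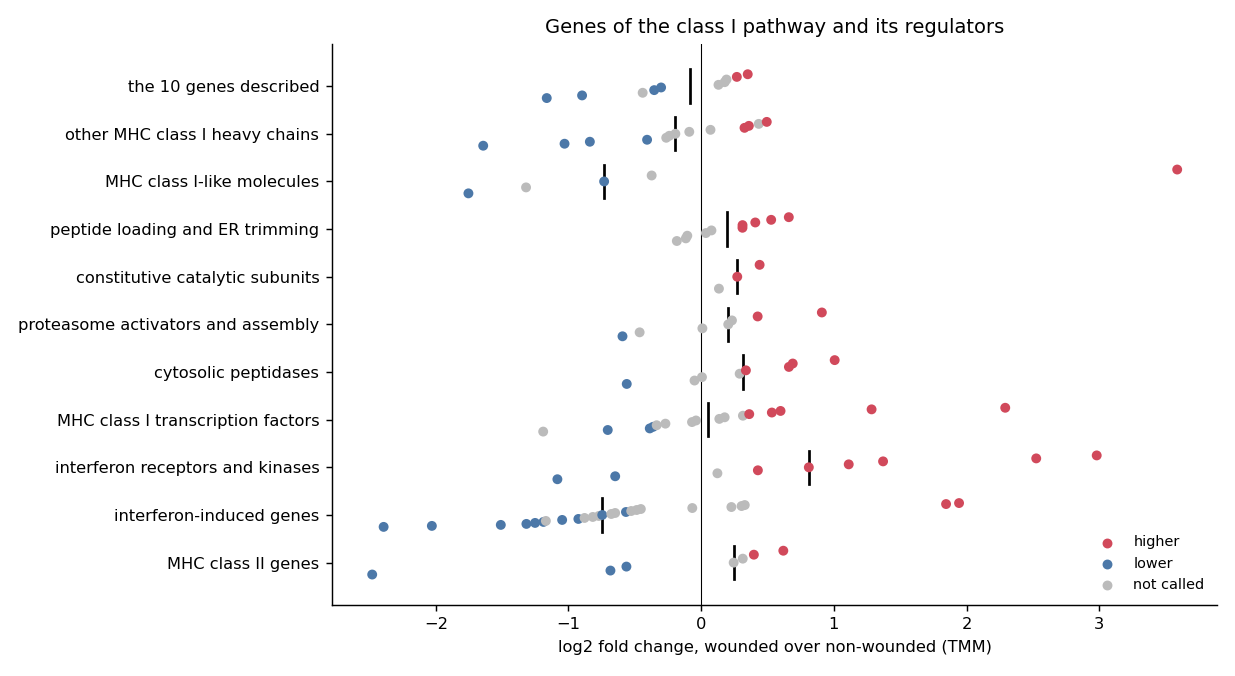
Log2 fold change (wounded over non-wounded, TMM factors) of each tested gene of the 10 described genes and of the other pathway lists, 1 point per gene, coloured by call, with a vertical bar at the median of each list; the interferon list, with 1 tested gene, is not drawn. Psmb9 and Tap1 are the lowest of the 10 genes, and Irf1 is the highest of the transcription factors at 2.29.

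In whole epidermis, fewer cells of a type and less RNA per cell cannot be told apart. Leukocytes also express the 10 genes, and their markers moved with the groups. The summed level of 5 pan-leukocyte markers was 114 to 123 CPM in non-wounded and 82.3 to 102 CPM in wounded tissue, with 1 called higher and 2 lower. Ptprc, which encodes CD45, fell (log2 fold change -0.69, edgeR adjusted p = 0.000270), as did Coro1a (-1.41). Cd53 rose (0.58), a call lost in 10 of 17 alternatives, and Laptm5 and Cd52 were not called. T cell markers summed to 72.3 to 96.9 CPM before and 56.4 to 68.1 CPM after (0 of 7 tested higher and 3 lower, or 1 lower without wounded mouse 2 or 3), and macrophage markers to 95.4 to 109 and 49.9 to 71.4 CPM (2 of 5 higher, 2 lower). Langerhans cell markers were higher, at 1373 to 1484 and 2177 to 2555 CPM (4 of 6 higher, 0 lower, or 3 and 0 with library totals alone). Of these, Cd74, H2-Aa and H2-Eb1 are also among the class II genes above. Markers listed for 4 other cell types from outside the epidermis were higher in sum after wounding, while endothelial markers were not. Fibroblast markers summed to 2.67 to 7.36 and 29.7 to 65.4 CPM (5 of 5 tested higher), and red blood cell markers to 18.9 to 26.1 and 97.3 to 165 CPM (5 of 5). Skeletal muscle markers summed to 3.85 to 3.98 and 10.9 to 14.1 CPM (4 of 5), and neutrophil markers to 2.16 to 4.49 and 9.89 to 14.4 CPM. Of 8 neutrophil markers listed, 4 had too few counts to be tested, with the defining marker Ly6g at 0 counts. The 4 tested, S100a8, S100a9, Cxcr2 and Csf3r, were called higher, and which cells expressed them was not tested. Endothelial markers summed to 4.27 to 5.99 and 3.91 to 4.87 CPM, with 1 of 2 tested lower. The part of these cells in the changes of the 10 genes was not tested.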

How the data were processed

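Polyadenylated RNA was measured in 6 libraries, 1 of wounded and 1 of non-wounded epidermis from each of 3 mice. Per the submitters' processing notes, Salmon, edgeR and mm10 were used; the sources used here give no version of Salmon, annotation release or strandedness. The authors deposited estimated counts per gene, of which 22.5 to 23.8% per library were not whole (tolerance 0.001), and TPM values, which the authors' table scales to about 1e+06 per library.

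Counts were rounded and tested with edgeR 4.0.16 (R 4.3.3; filterByExpr, TMM, quasi-likelihood, group as the only term); the call threshold was an adjusted p of 0.05. Alternatives used other scalings and filters, DESeq2 1.42.0, limma 3.58.1 on log2(TPM + 1) and log2(TPM + 0.1), each library left out, and the mouse as a block. On simulated data (16079 genes) edgeR's test recovered 28, 54, 88 and 96% of 50 genes each changed by 1.5, 2, 4 and 8-fold, with 19 false calls. The simulation changed 200 genes, far fewer than the 3859 and 3917 called in the data. The adjusted threshold is stricter when few genes change, so these shares do not give the recovery in the data. Deviations from group means correlated at 0.152, 0.0409 and 0.167 between libraries of the same mouse. Between libraries of different mice they correlated at -0.145 to 0.00587. The pairing comes from the labels. Depth allowed a floor of 3 counts per library, or 0.114 to 0.162 CPM, for counting error only. Each mouse gave 1 library per group. The p-values of the group-only fit cover spread between mice within a group and leave out the pairing by mouse, which the block fit uses. Positions and overlaps come from GENCODE M21 on GRCm38.

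The genes and lists were chosen with earlier results of these data known. The text names all 10 genes, the 3 genes with the smallest p in each pathway list, any gene called against most of its pathway list, and the 5 genes outside the lists whose pattern was most alike; 1 gene that this rule names is not reported here. Of 195 listed genes, 193 were in the table.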

Additional observations from a re-analysis of the deposited data

How the results depend on the processing

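With the mouse as a replicate block, 2 of the 10 genes rose and 5 fell (Psmb10 was added), and the block changed no other call among them. Under upper-quartile factors, library totals alone, both TPM fits, and the block with library totals, 0 of the 10 genes rose, as did 0 of the 9 that could be scaled to B2m; with every gene with a count tested, 1 rose. Leaving out 1 library gave 0 to 1 higher and 2 to 3 lower, beside 3153 to 3597 and 3147 to 3600 over all genes. Over all genes, 3859 rose and 3917 fell in the reported fit. Of the counts that moved, library totals alone gave 2168 that rose and 6655 that fell. Others were 1904 and 1895 higher with log2(TPM + 1) and log2(TPM + 0.1), 2414 higher and 7070 lower with the block and library totals, and 2302 higher with counts scaled to B2m. Signs turned for B2m (-0.15 with library totals, with and without the block; -0.17 in both TPM fits), H2-K1 (-0.13 in both library-total fits and -0.12 in both TPM fits) and H2-D1 (-0.056 in both library-total fits). They also turned for Tapbp (-0.017 with upper-quartile factors, -0.19 in both library-total fits, -0.24 and -0.25 in the TPM fits, -0.053 scaled to B2m) and Nlrc5 (-0.058 and -0.059 in the TPM fits). The cause was not tested. Tap1 and Psmb9 kept direction and call in 17 of 17 alternatives. With 3 libraries a group, changes can be missed, so a gene that was not called is not shown to be equal. The simulation, with 200 changed genes, does not give the share missed in these data.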

Other observations

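The 5 genes outside the lists whose CPM pattern over the 6 libraries was most like the mean pattern of the 10 genes were Gstm4 (Pearson r = 0.999), Bbs12 (0.999), Rcsd1 (0.999), Srd5a3 (0.998) and Spata7 (0.997). All 5 fell after wounding, with log2 fold changes between -1.71 and -0.33. The 10 genes did not share 1 pattern, since Psmb9 correlated with H2-K1 at -0.93 and with Nlrc5 at -0.91. Likeness to their mean is therefore not likeness to each of them. Of 13050 candidate genes, 711 had an r above 0.95, so that such likeness over 6 libraries of 2 groups was common. Gstm4 encodes a glutathione S-transferase and Srd5a3 an enzyme of dolichol synthesis.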
